A study of Rattus norvegicus with 12 samples.

Results

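The effect of 3-MC was measured over both estradiol states together, in the mammary glands of 12 ovariectomized female Lewis rats. All 12 arrays of the series enter it: the 6 rats that received 3-MC were set against the 6 that did not, with estradiol as a second factor in an additive model, and 23371 of 29214 probe sets were bright enough to be tested. The question was which genes 3-MC moved by a like amount whether or not the rats also received estradiol (E2). The groups of 3 rats each were 3-MC, vehicle, E2 + 3-MC and E2. Ovariectomy removes the main source of ovarian estrogen, and all 12 rats had undergone it at about 10 weeks of age. From 14 days later they received 3 subcutaneous treatments at 24 hr intervals, with 3-MC at 15 mg per kg per day, E2 at 4 μg per kg per day, both, or the carrier alone, DMSO and castor oil, which all groups received. Glands were taken 24 hr after the last treatment, while the sample labels give a treatment time of 48 h. RNA of whole glands from several pairs was hybridized to 1 rat gene array per rat, so epithelium, fat, vessels and immune cells were measured together. The rats are numbered 1 to 3 within each group, and p values measure the spread between these animals.

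3-MC, or 3-methylcholanthrene, is a polycyclic aromatic hydrocarbon that binds the aryl hydrocarbon receptor (AHR). The AHR is a transcription factor held in the cytoplasm by chaperones until a ligand arrives, and with its partner ARNT it reads a short DNA core, GCGTG, the xenobiotic response element. Its best known targets are Cyp1a1, Cyp1b1 and Nqo1, whose enzymes oxidize or reduce foreign compounds, and Ahrr, whose product competes with the receptor and so limits it. It is also active in immune cells, and polycyclic aromatic hydrocarbons are mammary carcinogens in the rat.

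Values are linear array intensities, and log2 differences were taken after 16 was added to each intensity, so a fold understates the difference of a dim gene. To pass, a probe set needed both a 1.5-fold difference and a p under 0.05 after Benjamini-Hochberg adjustment. Shifted alike means that the log2 differences without and with E2 had the same sign and that the smaller was at least 0.5 times the larger. This describes the 2 values and is no test that they are equal. Where several probe sets carried 1 gene symbol, the brightest stands for the gene in the lists.

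All 20 measured luminal markers and all 10 measured basal and myoepithelial markers were above the limit for testing. So were all 14 skeletal muscle and all 11 endothelial markers, and 23371 of 29214 probe sets, so this does not set the epithelium apart. Some rats stood apart from their group. The skeletal muscle list, given for each rat as the median log2 difference of its members from the vehicle mean, lay at 0.98, 1.57 and -3.57 in the 3-MC rats, against 1.77, 2.03 and -3.79 in the vehicle rats, and at -2.12, -1.97 and -3.39 in the E2 + 3-MC rats, against -0.32, -2.73 and -1.27 in the E2 rats. In Cyp1b1, Ahrr, Nqo1 and the level of the myeloid markers, described below, 3-MC rat 2 lay within or below the range of the vehicle rats, E2 + 3-MC rat 1 lay below its group mates, and vehicle rat 3 lay above its own. The median spread within a group, as the SD of log2 values, was 0.20 in 3-MC rats, 0.18 in vehicle rats, 0.16 in E2 + 3-MC rats and 0.14 in E2 rats. The array medians ran from 85.7 to 109.5 and averaged 6.85 with 3-MC and 6.80 without it on the log2 scale (difference 0.06, exact permutation test within estradiol states, two-sided p = 0.295, smallest possible 0.005).

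No probe set passed for the effect of 3-MC over both estradiol states: 0 of 23371 (0%) had an adjusted p under 0.05 by limma, at any fold, and the smallest adjusted p was 0.418. At an unadjusted p under 0.05, 2244 probe sets (9.60%) were found, 1845 of them higher with 3-MC (7.89% of all tested) and 399 lower (1.71%). An unpaired t-test, the kind that the methods name for pairs of conditions, set the 6 arrays with 3-MC against the 6 without. It held no term for estradiol, and it likewise gave 0 after adjustment and 1881 before it. Below it is called the methods' t-test. The prevailing direction of these unadjusted results depended on the scaling of the arrays. Higher probe sets made up 82.2% of them in the values as deposited, against 47.5% after quantile normalization and 48.7% after each array was centred on its median, which moved the median of all probe sets from 0.05 to -0.01 on the log2 scale. Leaving out 3-MC rat 2 brought 54 probe sets higher and 2 lower past the threshold, among them Cyp1b1, Cxcl9, Ptgis, Cd8a and Krt15, and leaving out any other single rat brought none.

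Because nothing passed, the genes below are described by their values. Where a direction is counted, it is counted at an unadjusted p under 0.05, and that share is read against the share of all probe sets. With a 1.5-fold difference as well, 340 probe sets were higher with 3-MC (1.45% of all tested) and 14 were lower (0.0599%), and these were chosen on the contrast that is described. Among the 340, the median log2 difference was 1.03 for E2 + 3-MC minus E2 and 0.63 for 3-MC minus vehicle, and 316 differed by more in the presence of E2. The contrast used to choose them is the mean of these 2 differences, so the choice favours like ones. By the rule above, 222 of the 340 (65.3%) were shifted alike, against 24.3% of all tested probe sets, and a higher share was built in. This count was 140 after quantile normalization. It was 48 without vehicle rat 2, 66 without 3-MC rat 1, 412 without vehicle rat 3 and 459 without 3-MC rat 2. Of the 14 lower probe sets, 5 were shifted alike. This was 10 after quantile normalization, 11 after centring, 18 without 3-MC rat 1, 13 without vehicle rat 3, 11 without E2 + 3-MC rat 1, 9 without vehicle rat 1 or 3-MC rat 2, 8 without E2 rat 3 or E2 + 3-MC rat 3, and 3 without E2 rat 1 or E2 rat 2. The count of 14 itself was 39 without vehicle rat 3, 38 without 3-MC rat 1, 26 without E2 + 3-MC rat 1, 23 without vehicle rat 2 and 22 without E2 rat 3.

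**Figure D1:**
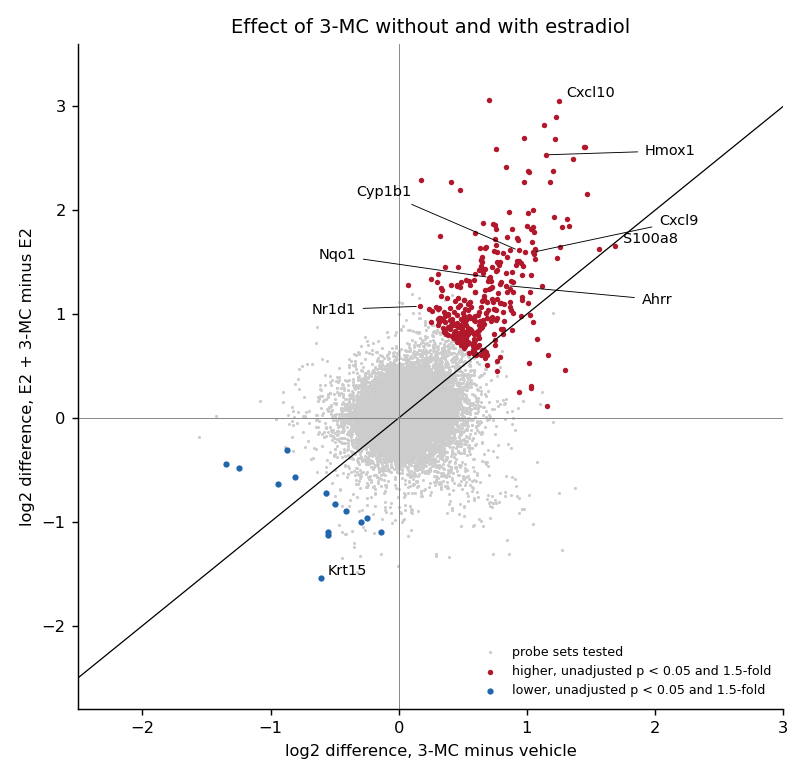
Each point is a probe set, with its log2 difference for 3-MC minus vehicle on the x axis and for E2 + 3-MC minus E2 on the y axis. Grey points are the 23371 probe sets tested, red points the 340 higher and blue points the 14 lower at an unadjusted p under 0.05 and 1.5-fold, and the line marks equal differences. Most red points (316) lie above the line.

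The estradiol states share no array, so probe sets chosen in one can be read in the other. In the 6 arrays with E2 alone, 573 probe sets (2.45%) were higher with E2 + 3-MC than with E2 at an unadjusted p under 0.05 and 1.5-fold, and 216 (0.924%) were lower. Of the 573, 531 (92.7%) lay above 0 for 3-MC minus vehicle, against 63.5% of all probe sets, with a median log2 difference of 0.45 against 0.06 over all. Of the 573, 189 reached 1.5-fold there, and 12 (2.09%) did so with an unadjusted p under 0.05. In the 6 arrays without E2, 101 probe sets (0.432%) were higher with 3-MC than with vehicle and 32 (0.137%) were lower, so the 2.09% stands against 0.432% of all. Of these 101, 52 (51.5%) lay above 0 for E2 + 3-MC minus E2, against 59.1% of all probe sets. The same 12 probe sets, 11.9% of the 101, were also higher with E2 at an unadjusted p under 0.05 and 1.5-fold, against 2.45% of all. Probe sets chosen as lower shared their direction across states about as often as any other, 73 of 216 (33.8%) against 36.5% of all and 13 of 32 (40.6%) against 40.9% of all. Across all tested probe sets the differences in the 2 states correlated weakly (Pearson 0.27, Spearman 0.14, n = 23371 probe sets, which are not independent replicates). The interaction of 3-MC and E2 passed for 0 probe sets by limma (smallest adjusted p 0.446), with 1032 (4.42%) at an unadjusted p under 0.05.

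Genes of the AHR battery were led by Cyp1b1, Ahrr and Nqo1. Of 22 genes on this list, 18 were measured and 16 tested. Of these, 4 were higher at an unadjusted p under 0.05 (25% of the list, against 7.89% of all probe sets), 0 were lower, 6 were shifted alike, and the median log2 difference was 0.12, against 0.05 for all probe sets. In the 6 arrays with E2 4 were higher, and in the 6 without E2 0 were, against 2099 and 374 of all 23371 probe sets. Cyp1b1 measured 553, 101 and 588 in the 3-MC rats, against 161, 127 and 211 in the vehicle rats, and 154, 560.2 and 407 in the E2 + 3-MC rats, against 97.7, 88.3 and 107 in the E2 rats. Cyp1b1 encodes a cytochrome P450 that hydroxylates estradiol and activates polycyclic hydrocarbons. It was above every vehicle rat in 3-MC rats 1 and 3 and below every vehicle rat in 3-MC rat 2, and above every E2 rat in all 3 E2 + 3-MC rats. Its log2 difference was 1.27 over both states (95% interval 0.47 to 2.08, unadjusted p = 0.00429, adjusted p = 0.418 by limma).

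Ahrr measured 106, 41.3 and 175 in the 3-MC rats, against 32.2, 34.3 and 80.3 in the vehicle rats, and 51, 168 and 98.4 in the E2 + 3-MC rats, against 25.5, 38.8 and 27.7 in the E2 rats. The same 2 of 3 rats in each 3-MC group were high, while vehicle rat 3 stood above its group mates. Nqo1 measured 234, 72.8 and 361 in the 3-MC rats, against 97.1, 62.3 and 199.8 in the vehicle rats, and 87.1, 346 and 215 in the E2 + 3-MC rats, against 64.8, 65.1 and 63.1 in the E2 rats. Nqo1 encodes a quinone reductase that the AHR and NRF2 both control. Again 3-MC rat 2 lay within the vehicle range, and all E2 + 3-MC rats lay above all E2 rats. The log2 differences over both states were 1.06 for Ahrr (unadjusted p = 0.00268, adjusted p = 0.418 by limma) and 1.03 for Nqo1 (unadjusted p = 0.0124, adjusted p = 0.423 by limma). All of these 3 genes were shifted alike, with log2 differences of 0.94, 0.84 and 0.71 for 3-MC minus vehicle and 1.61, 1.27 and 1.35 for E2 + 3-MC minus E2. A further fit took the level of the myeloid cell markers, described below, as a covariate. In it, 0 of the 16 tested AHR battery genes were at an unadjusted p under 0.05 in place of 4. Of all 23371 probe sets, 274 were higher in that fit, so 0 of 16 was near the share of all.

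The promoters of the 3 AHR battery genes with the largest differences are shown because they could be searched for the core of the xenobiotic response element. They are windows of RefSeq (GRCr8) from 250 bases before to 50 bases after the annotated start, 5′ to 3′ on the gene's strand, with GCGTG or its reverse complement in capitals. For Cyp1b1 the start used by the promoter table lies downstream of the outermost annotated start of the gene, at position 21093927, whose own window was not searched.
Cyp1b1, chr6:21094315-21094614, plus strand: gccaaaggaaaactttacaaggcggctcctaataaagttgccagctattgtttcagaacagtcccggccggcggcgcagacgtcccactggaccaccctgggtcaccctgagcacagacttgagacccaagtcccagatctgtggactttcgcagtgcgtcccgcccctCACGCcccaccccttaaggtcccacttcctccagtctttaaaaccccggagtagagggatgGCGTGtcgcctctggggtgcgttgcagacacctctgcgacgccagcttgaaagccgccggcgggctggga
Ahrr, chr1:30821969-30822268, plus strand: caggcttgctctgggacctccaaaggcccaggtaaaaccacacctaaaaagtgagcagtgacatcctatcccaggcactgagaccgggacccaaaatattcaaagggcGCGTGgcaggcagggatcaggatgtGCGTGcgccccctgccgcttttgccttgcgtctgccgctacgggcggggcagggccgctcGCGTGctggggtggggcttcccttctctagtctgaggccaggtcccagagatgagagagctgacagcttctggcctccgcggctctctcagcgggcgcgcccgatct
Nqo1, chr19:52220218-52220517, minus strand: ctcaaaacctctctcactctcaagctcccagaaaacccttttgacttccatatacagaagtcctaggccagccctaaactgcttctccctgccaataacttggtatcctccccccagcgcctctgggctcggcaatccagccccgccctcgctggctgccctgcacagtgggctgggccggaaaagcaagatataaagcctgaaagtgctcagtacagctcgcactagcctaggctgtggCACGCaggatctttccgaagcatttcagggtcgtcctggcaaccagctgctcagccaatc

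Ahrr held 3 cores, all on the gene's strand, Cyp1b1 held 2, 1 on each strand, and Nqo1 held 1 on the opposite strand, shortly before the annotated start. The longer motif TNGCGTG, which contains the core, occurred 1 time each in Ahrr and Cyp1b1. Of 18 measured battery genes, 15 matched a promoter, and 7 of the 15 (46.7%) held the core, against 31.1% of 27457 promoters. The rest of the 7 were Slc7a5, with 3 cores, and Ugdh, Lrat and Scin, with 1 each. Their log2 differences over both states were 0.18, 0.53, 0.07 and 0.09. Of the 244 genes that were higher at an unadjusted p under 0.05 and 1.5-fold, 191 matched a promoter, and 55 of these (28.8%) held the core, while 7 (3.66%) held TNGCGTG, against 5.12% of all promoters. The motif TGACNNNGC of the antioxidant response element was in 20 of the 191 (10.5%), against 12.2% of all promoters. No GCGTG was found in the windows of Akr1b8 and Cxcl9. These counts describe the letters in the window and say nothing of what binds there.

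Cyp1a1, the most used marker of AHR activation, was too dim to be tested. Cyp1a1 measured 44.5, 21.6 and 39.4 in the 3-MC rats, against 24, 11 and 10.2 in the vehicle rats, and 18, 111 and 30.6 in the E2 + 3-MC rats, against 16.9, 21.8 and 22.7 in the E2 rats. 3-MC rats 1 and 3 lay above all vehicle rats and E2 + 3-MC rats 2 and 3 above all E2 rats, but the groups overlapped in both states. Fitted without the filter, Cyp1a1 had a log2 difference of 0.70 (unadjusted p = 0.0142, adjusted p = 0.441 by limma), 0.72 without and 0.69 with E2, so it was shifted alike. The other member at an unadjusted p under 0.05 was Il1r2, the decoy receptor for interleukin-1, with a log2 difference of 0.40 and values of 99.6, 71.8 and 188 in the 3-MC rats, against 91, 74.3 and 111 in the vehicle rats. Ugdh, which makes the UDP-glucuronic acid used for conjugation, differed by 0.53 (unadjusted p = 0.0554). The other 11 tested members lay between -0.22, for the flavin monooxygenase gene Fmo1, and 0.31, for Htatip2, with Cyp1a2 at 0.08, Aldh3a1 at 0.02 and Nfe2l2, which encodes NRF2, at 0.10. Aldh3a1 turned to -0.040 after quantile normalization and to -0.034 after centring. Serpinb2 was measured below the limit for testing.

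**Figure D2:**
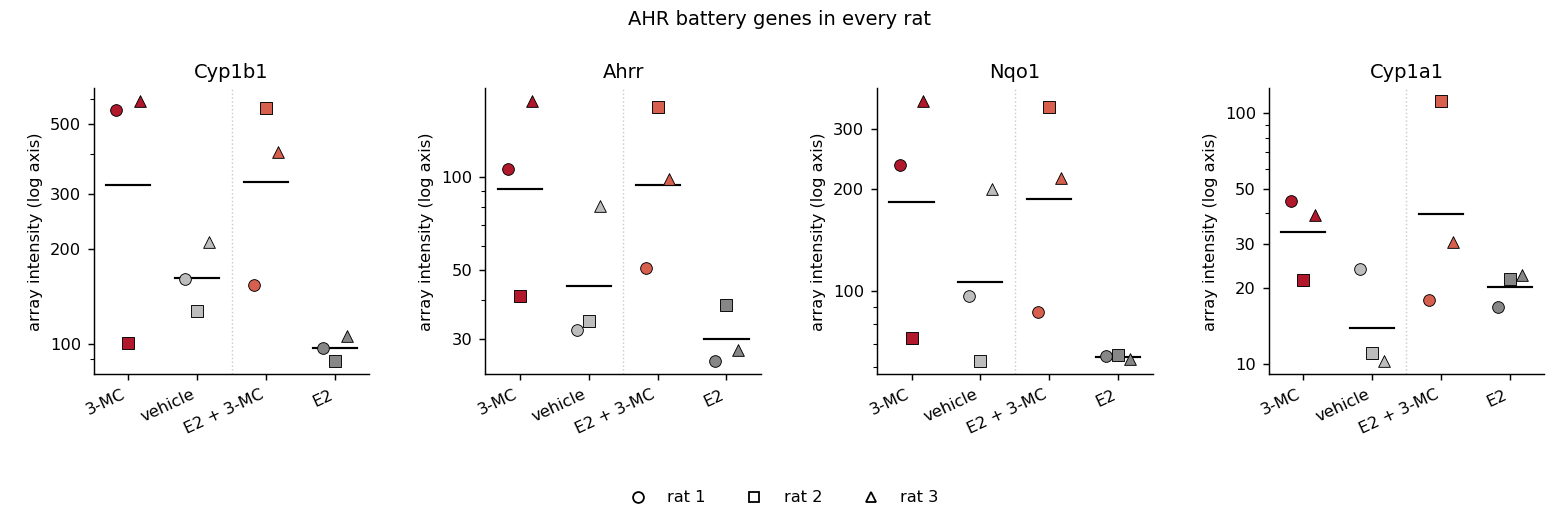
Array intensity (log axis) of Cyp1b1, Ahrr, Nqo1 and Cyp1a1 in each rat of the 4 groups. Symbols give the rat number and bars the geometric mean of 3 rats. In the first 3 panels, 3-MC rat 2 lies within or below the range of the vehicle rats and E2 + 3-MC rat 1 is the lowest of its group.

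The receptor itself and its partners lay close to 0. None of the 11 tested genes of the AHR complex (0%) was at an unadjusted p under 0.05 in either direction, and their log2 differences ran from -0.15 for Ahr to 0.18 for the coactivator gene Ncoa3. Ahr measured 310.2, 294 and 222 in the 3-MC rats, against 264, 246 and 336 in the vehicle rats, so the groups overlapped. Arnt differed by 0.01 and turned to -0.039 after quantile normalization and to -0.045 after centring. Of the steroid and prolactin receptors, 0 of 7 tested were at an unadjusted p under 0.05. Esr1, the gene of ERα, differed by -0.31 (95% interval -0.76 to 0.13), and its second probe set by -0.20. The genes of the progesterone and prolactin receptors, Pgr and Prlr, were not shifted alike. Pgr differed by 0.37 without and by -0.56 with E2, and Prlr by 0.40 without and by -0.51 with it (interaction, unadjusted p = 0.018 and 0.00294, adjusted p = 0.982 and 0.921 by limma).

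Myeloid cell markers were the cell type list with the largest share of members at an unadjusted p under 0.05. Of 13 markers tested, 11 were higher (84.6%, against 7.89% of all probe sets), 0 were lower, and 10 were shifted alike. The median log2 difference was 1.02 over both states, 0.70 for 3-MC minus vehicle and 1.31 for E2 + 3-MC minus E2. Tyrobp measured 1341, 516 and 1427 in the 3-MC rats, against 509, 253 and 1093 in the vehicle rats, and 568, 1424 and 1311 in the E2 + 3-MC rats, against 359, 314 and 406 in the E2 rats. Tyrobp encodes a signaling adaptor of macrophages and natural killer cells. The E2 + 3-MC rats all lay above the E2 rats, while 3-MC rat 2 and vehicle rat 3 made the groups without E2 overlap. Fcgr1a, a high-affinity Fc receptor gene, had the largest difference of the list, 1.42, followed by Cybb, of the phagocyte oxidase, at 1.23. Cd14 and Adgre1, both common macrophage markers, differed by 0.22 and 0.18 and were not at an unadjusted p under 0.05.

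Seen as 1 level for each rat, the myeloid list lay at 1.19, -0.15 and 1.01 in the 3-MC rats, against -0.17, -0.73 and 0.89 in the vehicle rats, and at 0.07, 1.19 and 1.0 in the E2 + 3-MC rats, against -0.59, -0.58 and -0.27 in the E2 rats. The groups overlapped without E2 and did not overlap with it. 3-MC rat 2 was the lowest of its group in Cyp1b1, Ahrr, Nqo1 and the myeloid level, as was E2 + 3-MC rat 1, while vehicle rat 3 and E2 + 3-MC rat 2 were the highest of theirs in all 4. With the myeloid level as a covariate, a fit added after the data were seen, 562 probe sets were at an unadjusted p under 0.05 in place of 2244. Of these 562, 274 were higher and 288 lower, so a count of 0 in a single list was near the share of all probe sets. The mean myeloid level was higher in both 3-MC-treated groups, so the covariate shares its variation with the treatment. In bulk tissue, more cells of a type and more RNA per cell cannot be told apart.

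Outside the lists, Fcgr3a, Ms4a7, Slpi, Lilrb4 and Akr1b8 had the largest differences among the named probe sets of the 340 that were shifted alike, and they were chosen after their values were seen. Slpi measured 1114, 229 and 2743 in the 3-MC rats, against 285, 119 and 879.7 in the vehicle rats, and 738, 2017 and 1704 in the E2 + 3-MC rats, against 367, 198 and 349 in the E2 rats. Slpi encodes a leukocyte protease inhibitor that epithelia secrete. All E2 + 3-MC rats were above all E2 rats, and 3-MC rat 2 again lay in the vehicle range. The log2 difference was 1.81 for Slpi and 2.03 for Fcgr3a, an Fc receptor gene, the largest of these. Fcgr3a measured 1541, 163 and 158 in the 3-MC rats, against 129, 65.4 and 183 in the vehicle rats. It measured 311, 2043 and 1003 in the E2 + 3-MC rats, against 125, 151 and 112 in the E2 rats. Without E2 only 3-MC rat 1 exceeded the vehicle rats in Fcgr3a, and with E2 the groups did not overlap. Akr1b8 measured 979, 116 and 475 in the 3-MC rats, against 148, 64.2 and 301 in the vehicle rats, and 316, 541 and 349.7 in the E2 + 3-MC rats, against 93.2, 95.6 and 87.7 in the E2 rats. Akr1b8 encodes an aldo-keto reductase that detoxifies aldehydes. It had a log2 difference of 1.61 (95% interval 0.74 to 2.49, unadjusted p = 0.00135, adjusted p = 0.418 by limma), with 1.32 without and 1.91 with E2, and its values without E2 overlapped through 3-MC rat 2 and vehicle rat 3.

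Lymphocyte markers ran the same way. Of 12 tested, 8 were higher at an unadjusted p under 0.05 (66.7%, against 7.89% of all probe sets) and 0 were lower. Of the 12, 6 were shifted alike, and the median log2 difference was 0.76. The count was 2 with the myeloid level as a covariate. All 8 were T cell, natural killer cell or antigen presentation genes, and the B cell gene Cd79b differed by 0.06. Cd3e measured 115, 104 and 83.6 in the 3-MC rats, against 56.5, 46.3 and 75.7 in the vehicle rats, and 102, 243 and 121 in the E2 + 3-MC rats, against 71.8, 81 and 65.7 in the E2 rats. Cd3e encodes a chain of the T cell receptor complex. The groups did not overlap in either state, and the log2 difference was 0.75 (95% interval 0.39 to 1.11, unadjusted p = 0.000527, adjusted p = 0.418 by limma). Cd8a measured 150.0, 44.5 and 158 in the 3-MC rats, against 33.2, 21 and 93.4 in the vehicle rats, and 65.1, 216 and 151 in the E2 + 3-MC rats, against 19.4, 28.2 and 28.3 in the E2 rats. Cd8a, the coreceptor of cytotoxic T cells, separated the groups with E2 but not without it, where vehicle rat 3 lay above 3-MC rat 2. Prf1, the gene of the pore-forming protein perforin, differed by 0.61 and did not overlap in either state.

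**Figure D3:**
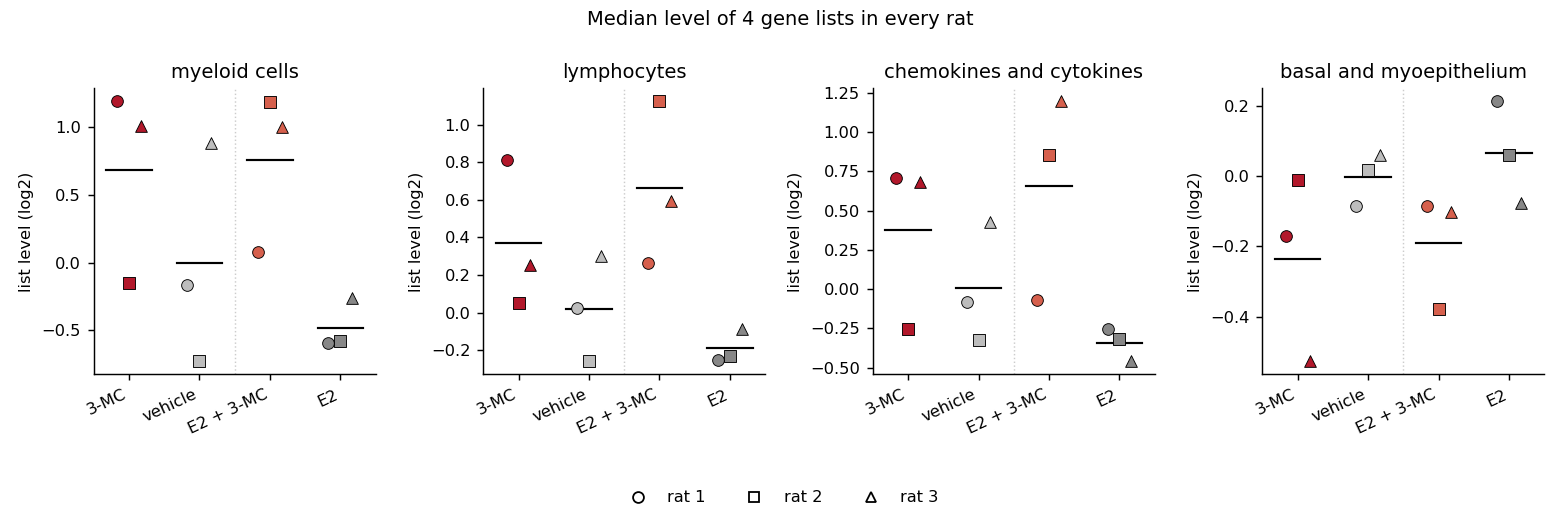
Level of 4 gene lists in each rat, as the median log2 difference of the list's members from the vehicle mean. Symbols give the rat number and bars the mean of 3 rats. With E2 the myeloid levels of the E2 + 3-MC rats (0.07 to 1.19) lie above those of the E2 rats (-0.59 to -0.27), and without E2 the groups overlap in the 3 immune lists.

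Separation of the groups in both states was uncommon. In 149 probe sets (0.638%) every 3-MC-treated rat was above every rat of its control group in both states, and in 32 (0.137%) every one was below. Of the 340 probe sets described above, 283 (83.2%) separated the E2 + 3-MC rats from the E2 rats. Of all tested probe sets, 2807 (12%) did so with the E2 + 3-MC rats higher. The 340 were chosen on a contrast that holds this same difference, so a higher share was built in. Without E2, 15 of the 340 (4.41%) separated the 3-MC rats from the vehicle rats. This was near the share of all with the 3-MC rats higher, 1101 (4.71%). In 7 of the 340 the groups were separated in both states. Of these 7, 5 carried 1 gene symbol: Cxcl9, Psmb9, Cd3e, Ptgis and Prf1. Ptgis measured 97, 83.2 and 136 in the 3-MC rats, against 61, 62.3 and 76.5 in the vehicle rats, and 96.4, 115 and 129 in the E2 + 3-MC rats, against 61.6, 58.6 and 64.3 in the E2 rats. Ptgis encodes prostacyclin synthase and had the smallest p of any probe set, with a log2 difference of 0.63 (95% interval 0.39 to 0.87, unadjusted p = 5.45e-05, adjusted p = 0.418 by limma). A second Ptgis probe set differed by 0.87 (unadjusted p = 0.0196), 0.47 without and 1.26 with E2, and was not shifted alike. Cxcl9 measured 1243, 549 and 401 in the 3-MC rats, against 399, 222 and 326 in the vehicle rats, and 522, 1082 and 710.0 in the E2 + 3-MC rats, against 225, 255 and 222 in the E2 rats. Cxcl9, a chemokine that attracts T cells and is induced by interferon-γ, had a log2 difference of 1.32 (95% interval 0.79 to 1.85), 1.04 without and 1.59 with E2. Psmb9, an immunoproteasome subunit gene named after its values were seen, was the most even of these between the states, at 0.89 without and 0.84 with E2. It measured 855, 428 and 428 in the 3-MC rats, against 271, 218 and 388 in the vehicle rats.

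The other higher genes among the 8 with the smallest p were Gpr174, P2ry13, Star and Fezf2. All 8 were shifted alike, which a choice by the p of the additive model favours, as it does separation of the groups. Star measured 277, 449 and 414 in the 3-MC rats, against 264, 223 and 214 in the vehicle rats, and 195, 188 and 225 in the E2 + 3-MC rats, against 139, 164 and 142 in the E2 rats. Star, which encodes the protein that brings cholesterol into mitochondria for steroid synthesis, was the only one of the 8 with a larger difference without E2 (0.64) than with it (0.41), and its groups did not overlap in either state. P2ry13, an ADP receptor gene of myeloid cells, differed by 0.63, the lymphocyte receptor gene Gpr174 by 0.50 and the zinc finger gene Fezf2 by 0.40.

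**Figure D4:**
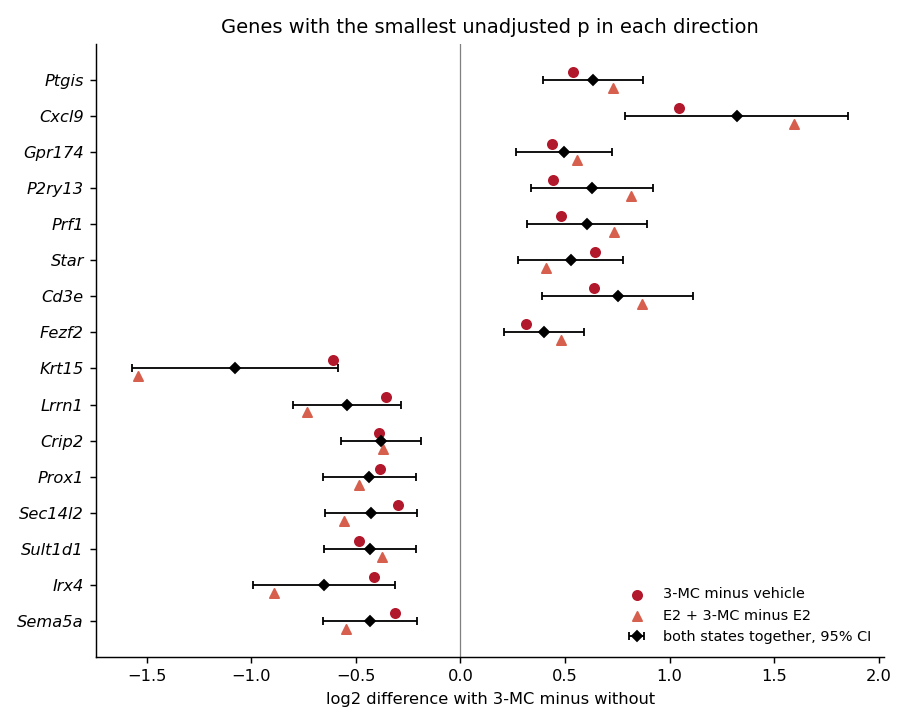
Log2 differences of the 8 higher and 8 lower genes with the smallest unadjusted p. Diamonds give the effect of 3-MC over both states with its 95% interval, circles 3-MC minus vehicle and triangles E2 + 3-MC minus E2. Krt15 shows the widest gap between the states, -0.61 without and -1.54 with E2.

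Chemokine and cytokine genes were higher in 14 of 21 tested members at an unadjusted p under 0.05 (66.7%, against 7.89% of all probe sets). They were lower in 0, and the median log2 difference was 0.85. Leaving out single rats gave 8 to 15, with 8 without E2 rat 3, E2 + 3-MC rat 2 or E2 + 3-MC rat 3 and 9 without 3-MC rat 3, and the methods' t-test gave 7. With the myeloid level as a covariate it was 1. S100a8 measured 341, 47 and 1193 in the 3-MC rats, against 98.1, 5.93 and 308 in the vehicle rats, and 31.4, 142 and 254 in the E2 + 3-MC rats, against 14.1, 44.3 and 19.9 in the E2 rats. S100a8 and S100a9 encode the calprotectin subunits of neutrophils, and both were shifted alike, S100a8 by 1.69 without and 1.65 with E2 and S100a9 by 1.56 without and 1.62 with E2. The values of S100a8 overlapped in both states, with 3-MC rat 3 far above the rest. Ccl7 measured 1516, 174 and 1445 in the 3-MC rats, against 261, 109 and 1147 in the vehicle rats, and 245, 1072 and 1560 in the E2 + 3-MC rats, against 129.6, 68 and 88.2 in the E2 rats. Ccl7 and Ccl2 encode attractants of monocytes. In both, vehicle rat 3 was far above 3-MC rat 2, and with E2 the groups did not overlap. The log2 difference was 1.13 without and 2.82 with E2 for Ccl7 and 1.02 without and 2.37 with E2 for Ccl2, so neither was alike by the rule.

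Genes of the type I interferon response were higher in 13 of 20 tested members (65%, against 7.89% of all probe sets) and lower in 0. Of the 20, 7 were shifted alike, and with the myeloid level as a covariate 0 were at an unadjusted p under 0.05. The median log2 difference was 0.33 for 3-MC minus vehicle and 0.95 for E2 + 3-MC minus E2. Cxcl10 measured 1182, 134 and 141 in the 3-MC rats, against 122, 67.2 and 168 in the vehicle rats, and 166, 1182 and 2238 in the E2 + 3-MC rats, against 71.6, 79.3 and 87.3 in the E2 rats. Cxcl10, an interferon-induced chemokine gene, had the largest difference of the list, 2.15. Without E2 only 3-MC rat 1 exceeded the vehicle rats, and with E2 the rats treated with 3-MC did not overlap the E2 rats. Mx1 measured 829, 60.6 and 60.1 in the 3-MC rats, against 64.2, 30.9 and 155 in the vehicle rats, and 129, 608 and 691 in the E2 + 3-MC rats, against 52.3, 44.8 and 40.6 in the E2 rats. The antiviral gene Mx1 had the same pattern. In the 6 arrays without E2, 0 of the 20 members were at an unadjusted p under 0.05, and in the 6 arrays with E2, 18 were. Of all 23371 probe sets, 374 were higher without E2 and 2099 with E2, so 0 of 20 was near the share of all.

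NRF2 and oxidative stress genes included 8 of 20 tested members at an unadjusted p under 0.05, all higher (40%, against 7.89% of all probe sets). Their median log2 difference over the 20 was 0.20. The count was 5 after quantile normalization or by the methods' t-test and 0 with the myeloid level as a covariate. It was 4 without vehicle rat 2, E2 rat 2, E2 rat 3, 3-MC rat 1 or E2 + 3-MC rat 3 and 5 without E2 + 3-MC rat 2. Hmox1 measured 2583, 174 and 1119 in the 3-MC rats, against 382, 144 and 799 in the vehicle rats, and 578, 1444 and 1127 in the E2 + 3-MC rats, against 165, 128 and 180.2 in the E2 rats. Hmox1 encodes heme oxygenase-1 and differed by 1.15 without and 2.53 with E2, so it was not alike by the rule, and 3-MC rat 2 lay near the lowest vehicle rat. Sod2, the mitochondrial superoxide dismutase gene, was shifted alike (0.70 without and 1.04 with E2), as were the metallothionein gene Mt2A (0.56 and 1.07) and Nqo1. The glutamate-cysteine ligase genes Gclc and Gclm, commonly read as NRF2 targets, differed by 0.16 and 0.11.

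Of the 14 lower probe sets, 5 carried 1 gene symbol, and they were the keratin genes Krt15, Krt14 and Krt17, the troponin gene Tnnt1 and the homeobox gene Irx4, none of them shifted alike. Krt15 measured 415, 562 and 304 in the 3-MC rats, against 665, 569.6 and 693 in the vehicle rats, and 741, 385 and 558 in the E2 + 3-MC rats, against 2205, 1800 and 1053 in the E2 rats. Krt15, a keratin of basal keratinocytes and on the epidermis list, did not overlap in either state, but its difference was -0.61 without and -1.54 with E2, so it was not alike. Its log2 difference over both states was -1.08 (95% interval -1.57 to -0.58, unadjusted p = 0.000335, adjusted p = 0.418 by limma). Of 10 basal and myoepithelial markers tested, 6 were lower at an unadjusted p under 0.05 (60%, against 1.71% of all probe sets) and 0 higher. Their median log2 difference was -0.32. After quantile normalization 7 were lower, where 1439 of all 23371 probe sets were, and after centring 7, where 1326 were. In the 6 arrays with E2, 4 were lower, against 940 of all probe sets, and in the 6 without E2, 1 was, against 142. The methods' t-test gave 3, and the fit with the myeloid level as a covariate 0. The keratin genes Krt14 and Krt17 differed by -0.14 and -0.25 without and by -1.10 and -0.97 with E2. Cnn1, the gene of the contractile protein calponin, was shifted alike, at -0.32 without and -0.42 with E2, as were Myh11 and Mylk. Of 20 luminal markers, 1 was lower, the transcription factor gene Ehf. This was 0 to 5 on leaving out single rats, with 5 without 3-MC rat 1. In the 6 arrays with E2 it was 10, against 940 of all 23371 probe sets.

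Lower genes among the 8 with the smallest p that were shifted alike had small differences. They were Crip2 (-0.38), Prox1 (-0.44), Sec14l2 (-0.43), Sult1d1 (-0.43) and Sema5a (-0.43). Crip2 measured 561, 536 and 537 in the 3-MC rats, against 661, 769.5 and 726 in the vehicle rats, and 702, 542 and 723 in the E2 + 3-MC rats, against 910.3, 845 and 788 in the E2 rats. Crip2 encodes a LIM domain protein, and its differences without and with E2, -0.39 and -0.37, were the closest among the 16 genes. Sult1d1 measured 75.3, 57.5 and 47.1 in the 3-MC rats, against 88.1, 91.9 and 87.4 in the vehicle rats, and 75.8, 58.4 and 72.6 in the E2 + 3-MC rats, against 105, 96.1 and 81.6 in the E2 rats. Sult1d1, a cytosolic sulfotransferase gene, was likewise below its control group in every rat of both states. Prox1, a transcription factor gene of lymphatic endothelium, Sec14l2, which encodes a lipid-binding protein, and Sema5a, a semaphorin gene, also did not overlap in either state. Of all probe sets, 32 (0.137%) were below in both states, and a choice by the smallest p favours such separation. Lrrn1 (-0.54) and the homeobox gene Irx4 (-0.65) were not shifted alike.

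Metabolic lists held fewer members at an unadjusted p under 0.05, and with the myeloid level as a covariate the counts for fatty acid synthesis and glycolysis were 0. Of 21 genes for fatty acid and triglyceride synthesis, 6 were higher (28.6%, against 7.89% of all probe sets) and 1 was lower (4.76%, against 1.71%). This was 3 higher and 3 lower after quantile normalization and 0 and 0 by the methods' t-test, and leaving out single rats gave 3 to 9 higher, with 3 without vehicle rat 2, any E2 rat or any E2 + 3-MC rat. Me1, the malic enzyme gene that supplies NADPH for lipid synthesis, was shifted alike, at 0.49 without and 0.56 with E2. Acaca, the acetyl-CoA carboxylase of that pathway, was not, at 0.23 without and 0.88 with E2, and Acacb, its mitochondrial counterpart that limits fatty acid oxidation, was the lower one, at -0.46 without and -0.33 with E2. Of 19 genes of glucose uptake and glycolysis, 4 were higher (21.1%), a count of 11 without E2 + 3-MC rat 1 and of 2 without vehicle rat 2 or E2 + 3-MC rat 2. None of 24 milk protein and secretory genes, 16 fatty acid oxidation genes, 14 white adipocyte markers or 11 endothelial markers was at an unadjusted p under 0.05, nor was any of 17 estrogen and progesterone targets or 8 mast cell markers. Of 20 genes of the unfolded protein response 2 were higher (10%, against 7.89% of all probe sets), and this was 4 without vehicle rat 3, 6 without 3-MC rat 2 or E2 + 3-MC rat 1, and 1 without 3-MC rat 1 or E2 + 3-MC rat 3. Of 13 cholesterol synthesis genes 1 was higher (7.69%, near the 7.89% of all), with 0 to 4 on leaving out single rats (over 1 without vehicle rats 1 and 3, E2 rat 1, 3-MC rat 2 and E2 + 3-MC rat 1, and 0 without vehicle rat 2, E2 rats 2 and 3, 3-MC rat 3 and E2 + 3-MC rats 2 and 3). Of 16 fibroblast and matrix genes 1 was higher (6.25%, below the 7.89% of all), with a count of 2 when E2 rat 3 or vehicle rat 3 was left out and of 0 without E2 rat 1, vehicle rat 2, 3-MC rat 1 or E2 + 3-MC rats 2 and 3. Of 7 epidermis and hair follicle genes 2 were lower (28.6%, against 1.71% of all), and 1 was without E2 rat 2. The count was also 2 after quantile normalization and after centring, where 1439 and 1326 of all 23371 probe sets were lower.

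Of 8 tested genes for estrogen metabolism, 3 were higher (37.5%, against 7.89% of all probe sets) and 0 were lower, and 1 was with the myeloid level as a covariate. They were Cyp1b1, the steroid sulfatase gene Sts, which differed by 0.12 without and 0.48 with E2, and Hsd17b12, which was shifted alike at 0.24 without and 0.36 with E2. Among 18 targets of p53 and DNA damage, 3 were higher (16.7%, against 7.89% of all probe sets). This was 0 to 6 on leaving out single rats (6 without 3-MC rat 2, 1 without 3-MC rat 1 or 3-MC rat 3, and 0 without vehicle rat 2, E2 rat 3 or E2 + 3-MC rat 2). Bax, which promotes apoptosis, was shifted alike in its brighter probe set, at 0.21 without and 0.38 with E2, and not in the other, at 0.11 and 0.28.

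In cell cycle and clock genes the average over both states joined unlike differences, although the interaction passed for 0 probe sets. Of 27 mitosis genes, 0 were at an unadjusted p under 0.05 and 0 were shifted alike, with a median log2 difference of -0.09 that joins 0.62 for 3-MC minus vehicle and -0.76 for E2 + 3-MC minus E2. The mitosis level was 1.08, -0.002 and 0.62 in the 3-MC rats, against 0.02, -0.38 and 0.38 in the vehicle rats, which overlapped. It was 0.51, 0.76 and 0.76 in the E2 + 3-MC rats, against 1.255, 1.60 and 1.45 in the E2 rats, which did not. DNA replication genes were similar, at 0.24 without and -0.37 with E2 over 24 genes. Of 14 clock genes tested, 2 were higher at an unadjusted p under 0.05 over both states (14.3%, against 7.89% of all probe sets), Nr1d1 and Dbp. In the other direction 1 was lower (7.14%, against 1.71%), Npas2, at -0.16 without and -0.62 with E2. The higher count was 5 without vehicle rat 1, and the lower count 2 without E2 + 3-MC rat 3. Nr1d1 differed by 0.17 without and by 1.07 with E2 (interaction, unadjusted p = 0.000975, adjusted p = 0.894 by limma). Nr1d1 measured 601, 561 and 672 in the 3-MC rats, against 628, 560.3 and 452 in the vehicle rats, and 1058, 853 and 997 in the E2 + 3-MC rats, against 524, 439 and 396 in the E2 rats. The groups overlapped without E2, and with E2 they did not. None of 14 skeletal muscle genes was at an unadjusted p under 0.05, although their median log2 difference was -0.67, and the muscle level of the rats spanned more than that within each group.

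**Figure D5:**
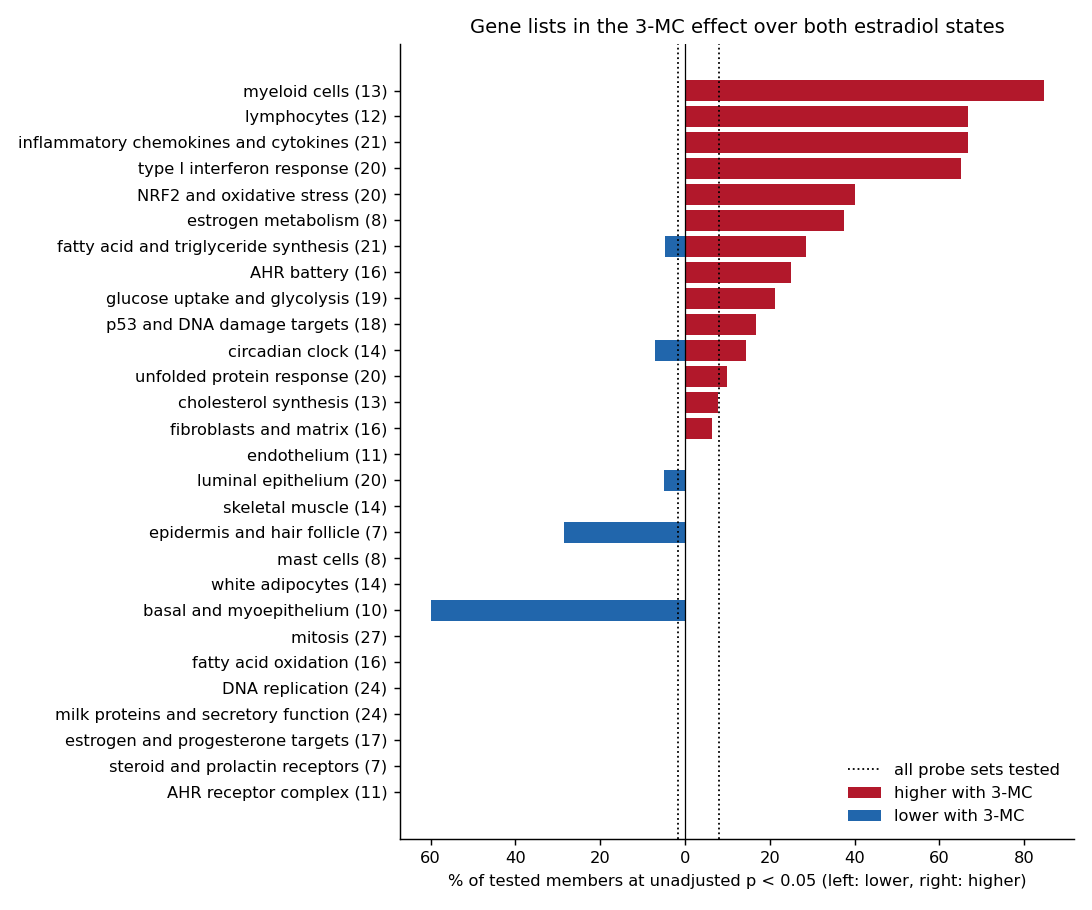
Share of each list's tested members (number in parentheses) at an unadjusted p under 0.05 for the effect of 3-MC over both states, higher to the right in red and lower to the left in blue. Dotted lines give the shares of all probe sets, 7.89% higher and 1.71% lower, and lists with fewer than 7 tested members are left out. Myeloid cells (84.6%) lead the higher side and basal and myoepithelial cells (60%) the lower.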

How the data were processed

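RNA of 12 rats, 1 Affymetrix rat gene array each, was analysed. The authors summarized probe signals with PLIER in Expression Console, and the deposited values are linear intensities. The methods also name quantile normalization, centring on the controls and a filter on the lowest 20 percent, but the array medians differ and all 29214 probe sets are present, so the values were used as deposited. Probe sets with 1 symbol numbered 15310, with several 323 and with none 13581, and only the first were named.

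From the values, log2(intensity + 16) was fitted with limma 3.58.1 in R 4.3.3, with 3-MC and estradiol as additive factors, for probe sets whose mean was above the 20th percentile. A model of the 4 groups gave the interaction. All tests were two-sided with Benjamini-Hochberg adjustment over 23371 probe sets. The procedure was tested on simulated data. Promoters were searched and figures drawn with Python 3.11.15 and matplotlib 3.10.9. Gene positions are those of GRCr8. The number of arrays limits the precision.

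Named genes were the 8 with the smallest p in each direction, all members of the AHR and steroid receptor lists, and up to 4 members of each other list. Since none passed, those 4 were chosen by unadjusted p and size, and further members named were chosen after their values were seen. The genes, gene lists and question were chosen with earlier results of these data known. Alternatives covered the filter, the pseudocount, scaling, blocks by rat number, covariates, array weights, thresholds, the methods' t-test, 1 probe set per gene, each estradiol state alone and leaving out each rat. The counts at unadjusted p, the readings across states, the 2-group fits and the myeloid covariate were added after the data were seen.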

Additional observations from a re-analysis of the deposited data

How the results depend on the processing

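With the additive model, no probe set passed without a filter, with stricter or looser filters, or with pseudocounts of 1 and 32. None passed in it after quantile normalization or centring, or with trend and robust settings or array weights. The muscle level as a covariate, treat against 1.5-fold and 1 probe set per gene also gave none. Neither did any pass by the methods' t-test, which held no term for estradiol. Leaving out single rats gave 0 to 54 probe sets higher and 0 to 2 lower (shifted alike, 0 to 54 and 0 to 2), and all those above 0 came without 3-MC rat 2. In the 6 arrays with E2 alone, 269 were higher and 90 lower, while in the 4-group model E2 + 3-MC against E2 gave 0 in each direction, as did 3-MC against vehicle.

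At an unadjusted p under 0.05 and 1.5-fold (340 higher, 14 lower), the higher count was 1845 with no fold threshold, 108 at 2-fold, 101 without E2 and 573 with E2, and 233 to 505 on leaving out single rats. The lower count was 30 and 9 with pseudocounts of 1 and 32, 26 after quantile normalization, centring or with a replicate block within states, 32 with array weights, 399 with no fold threshold, 1 at 2-fold, 7 by the methods' t-test, 5 with 1 probe set per gene, 32 without E2, 216 with E2, and 10 to 39 on leaving out single rats. The causes were not tested.

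Rat numbers carry no stated pairing. Deviations of same-numbered rats correlated at 0.341, 0.442 and 0.564 between 3-MC and vehicle, and at 0.130, 0.0809 and 0.137 between E2 + 3-MC and E2, so 5 of 6 were above 0.1 and each rat correlated best with its own number. With the rat number within each state as a replicate block, 52 probe sets were higher, 51 of them shifted alike, and 0 lower, including Ahrr, Ptgis, Cxcl9, S100a8, Tyrobp and Cd8a. With the number as a block across the 4 groups, none passed. For 3-MC against vehicle alone, where all 3 correlations were above 0.1, the block left the count at 0.

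Directions turned for some of the named genes, most of them near 0 on the log2 scale. After quantile normalization, Aldh3a1 was -0.040, Lrat -0.0018, Arnt -0.039 and Gper1 -0.062. After centring, Aldh3a1 was -0.034, Arnt -0.045 and Gper1 -0.054. With the muscle level as a covariate, Nr3c1 was 0.00090 and Gper1 -0.017. With array weights, Lrat was -0.0046 and Arnt -0.0069. With the arrays without E2 alone, Hsp90ab1 was 0.024, Ptges3 0.20, Cul4b 0.11, Ep300 0.0061, Pgr 0.37, Prlr 0.40, Gper1 -0.042 and Dbp -0.00013. With the E2 and E2 + 3-MC arrays alone, Aldh3a1 was -0.050, Arnt -0.017 and Hsp90aa1 -0.11. On leaving out single rats the log2 difference ran from -0.019 to 0.081 for Aldh3a1, from -0.037 to 0.041 for Arnt, from -0.093 to 0.035 for Ep300, from -0.032 to 0.034 for Gper1, from -0.0045 to 0.14 for Hsp90aa1, from -0.058 to 0.028 for Hsp90ab1, from -0.029 to 0.12 for Lrat, from -0.081 to 0.040 for Nr3c1, from -0.24 to 0.033 for Pgr, from -0.16 to 0.065 for Prlr and from -0.13 to 0.012 for Ptges3. Probe sets among the dimmest 20 percent, Cyp1a1 included, were not tested, and their differences are compressed by the added 16.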
